A study of Mus musculus with 3 samples.

Results

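The comparison described here set a line of mouse forestomach fibroblasts labelled Tgfbr2/Smad4 cKO (conditional knockout of both genes) beside a line labelled Tgfbr2 cKO, as the value of the first minus that of the second. It covers the 11808 of 19938 named genes whose highest value over the series reached the median of all values (6.63), and 2 of the 3 arrays. The third array, wild type, entered the level filter and is given as a point of reference where 3 levels are printed. Where only a difference or 2 levels are printed, wild type is not shown. All 3 lines were FSP1-positive fibroblasts of the forestomach, the part of the rodent stomach lined by squamous epithelium, grown at passages 4-6 in medium with 10% serum until subconfluent. Normal forestomach was the source of the wild-type line and of the Tgfbr2/Smad4 cKO line, whereas the Tgfbr2 cKO line was taken from a squamous cell carcinoma of that organ. The labels give the mice as a mix of the strains C57BL6 and BALBc and of either sex, without assigning either to a line. Neither the Cre driver nor the deleted exons are given in the sources used. Genotype, tissue of origin, strain and culture therefore cannot be told apart, and since each group is 1 line on 1 array, no difference has a replicate check and no p-value is given.

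TGF-beta binds the type II receptor encoded by Tgfbr2, which recruits and activates the type I receptor, and that receptor phosphorylates SMAD2 and SMAD3. BMP ligands use other type II and type I receptors and act through SMAD1, SMAD5 and SMAD9. Both branches need SMAD4, the common partner that enters the nucleus with the receptor-regulated SMADs, so a cell without Tgfbr2 is expected to keep a BMP branch that a cell without Smad4 lacks. In fibroblasts the TGF-beta branch is known for driving contractile and matrix genes. The study's title concerns BMP7 in stroma deficient in the TGF-beta receptor.

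Levels below are log2 values in the order wild type, Tgfbr2 cKO, Tgfbr2/Smad4 cKO, and a difference is Tgfbr2/Smad4 cKO minus Tgfbr2 cKO on the log2 scale. Tgfbr2 read 10.25, 10.25 and 10.29, and Smad4 read 11.06, 11.06 and 11.04. These transcript-level values show no loss of either targeted gene in the knockout arrays. Each value pools probes along the transcript and the deleted part is not known here, so they do not check the labels, and the arrays are named as labelled. The lines also parted by sex-linked genes. Xist, expressed from the inactive X chromosome, read 5.33, 5.35 and 9.44, and the Y-linked gene Eif2s3y read 10.12, 10.00 and 5.01. Uty and Kdm5d, also Y-linked, had differences of -2.61 and -2.32. The Tgfbr2/Smad4 cKO array thus carried a female pattern and the other arrays a male one, and sex pattern cannot be told apart from genotype in any difference below.

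Of 21 fibroblast markers with a value 19 passed the level filter, and Pi16 (6.17) and Dpp4 (5.85) lay under it in every array. Vim read 14.22 and 14.24 and Col1a1 14.38 and 14.52 in the Tgfbr2 cKO and Tgfbr2/Smad4 cKO arrays, and S100a4, which encodes FSP1, read 13.16 and 12.71. Other markers were dimmer, with Fap at 6.80 and 7.48, and Thy1 was 4.56-fold lower in the Tgfbr2/Smad4 cKO array. Of 20 epithelial markers 4 passed the level filter, with no level above 7.77, and the keratin gene Krt5 and the epithelial adhesion gene Cdh1 read 5.69 and 5.78 in every array. Leukocyte markers passed in 4 of 15, with Ptprc, the pan-leukocyte gene, at 5.23 throughout. Of 15 endothelial markers 5 passed, while Pecam1 was at 5.79 throughout. Among those 5, Eng read 9.46, 9.96 and 11.65, Flt1 7.74, 8.10 and 8.61, and Ptprb 9.05, 8.67 and 6.52. Vwf and Cldn5 were equal in every array. The size rule below is 2-fold, a difference of 1 on the log2 scale. Counts of list members are over those past the level filter, which 863 of 1081 listed genes with a value passed.

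By that rule 156 genes (1.32% of 11808) were higher and 266 (2.25%) were lower in the Tgfbr2/Smad4 cKO array, 422 or 3.57% either way. Lower genes made up 63.0% of those past the rule. Among them were regulators of mitosis, smooth muscle contractile genes, Il6 and Ccn2, while the higher genes included Ccn3, Bmp4, small proteoglycans and complement genes. The same rule found 3 higher genes (0.0254%) and 1 lower gene (0.00847%), 0.0339% in all, between the Tgfbr2 cKO and wild-type arrays. The log2 differences had an SD over genes of 0.400 in the first comparison and 0.0951 in the second. Most genes lay close to 0. Differences were within 0.5 on the log2 scale for 88.6% of genes. Over all genes 30.2% lay above 0, 33.7% lay below 0 and 36.1% read exactly equal in the pair. The equal share was 54.4% in the dimmest of 4 equal level classes and 19.6% in the brightest. The shares over all genes are set beside the list counts below, but they are not matched for level. Bright genes have fewer equal values, so for lists of bright genes the all-gene shares above or below 0 can run low. At 4-fold, 27 genes were higher and 42 lower, and at 8-fold 7 and 7.

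**Figure D1:**
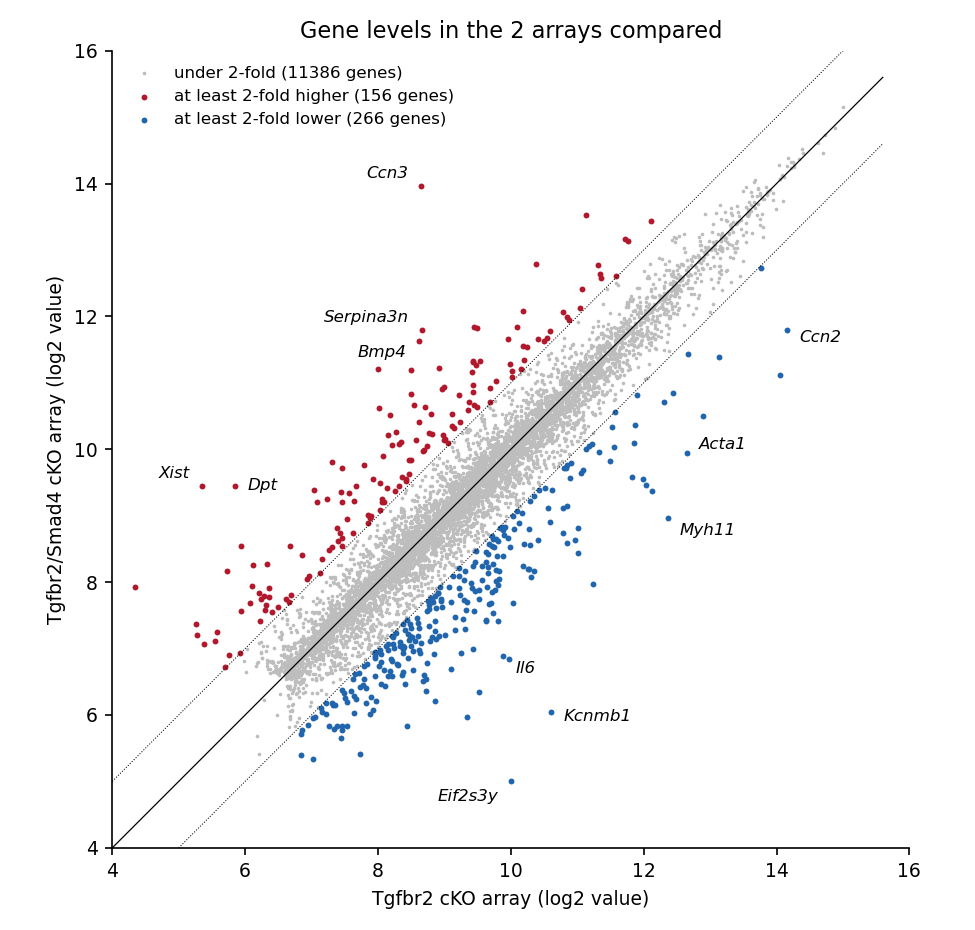
Log2 value of each of 11808 genes in the Tgfbr2 cKO array (x axis) and the Tgfbr2/Smad4 cKO array (y axis), with 156 genes at least 2-fold higher in red, 266 at least 2-fold lower in blue and the rest in grey; the solid line marks equal values and the dotted lines 2-fold. Ccn3 stands farthest above the line and Eif2s3y and Kcnmb1 farthest below it.

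Secreted signals held the largest difference. Ccn3, a matricellular protein of the CCN family also called NOV, read 8.73, 8.64 and 13.97, a 40.0-fold difference. Ccn2, the connective tissue growth factor, went the other way, with levels of 13.97, 14.16 and 11.80 and a difference of -2.36. Ccn3 was near the middle of the scale in both other arrays and Ccn2 near its top, and in the Tgfbr2/Smad4 cKO array Ccn3 stood where Ccn2 did in wild type. Probes differ between genes, so these positions do not rank the transcripts. Of the other CCN genes past the level filter, Ccn5 had a difference of 0.74, Ccn4 0.13 and Ccn1 -0.27, all under 2-fold.

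BMP signals were unevenly spread. Bmp4, a BMP ligand of gut mesenchyme, read 8.66, 8.61 and 11.63, an 8.12-fold difference. Gdf6, another ligand of that family, read 9.64, 9.62 and 7.41. Bmp7 read 6.45 in every array, under the level filter of 6.63. Bmper, a secreted BMP regulator, had a difference of -1.44, and Bmpr1b, a type I BMP receptor, had a difference of -1.15. The antagonist Grem1 was among the brightest genes, at 14.04, 14.04 and 14.29, and Nog, which encodes noggin, read 7.82 in each array. Among 18 BMP target genes 1 was at least 2-fold higher and 2 were lower. Id2, which encodes an inhibitor of basic helix-loop-helix factors, read 10.92, 10.91 and 9.79, Gata2, a transcription factor gene, read 8.44, 8.44 and 7.43, and it fell short of 2-fold after quantile normalization (-0.98) or with 32 added to the linear values (-0.89). Ogn, which also encodes a small proteoglycan, had a difference of 1.75. Of the 18, 8 lay below 0, 4 above and 6 were exactly equal. Their median, which falls among the equal values, was 0, as it was over all genes.

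On the TGF-beta side, 1 of 19 ligands, receptors and activin genes was at least 2-fold higher and 1 lower. Inhba, the activin A subunit, read 12.20, 12.44 and 10.84, and Eng, the co-receptor endoglin, read 9.46, 9.96 and 11.65. Tgfbr1, the type I receptor, had a difference of -0.89, Tgfb2 one of 0.93 and Tgfb3 one of -0.75. No SMAD or SKI gene passed 2-fold among 13, of which 6 lay below 0, 1 above and 6 were exactly equal. Tgif1, a co-repressor, came nearest at -0.68, and Smad7, the inhibitory SMAD, had a difference of -0.34. Of 33 TGF-beta target genes 5 (15.2%) were at least 2-fold lower, against 2.25% of all genes, and 1 higher. There were 21 below 0 and 10 above 0, against 33.7% and 30.2% of all genes, and the median was -0.24 against 0. Beside Ccn2, the lower members were Cnn1 (-1.74), the fibronectin receptor subunit Itga5 (-1.59), the urokinase receptor Plaur (-1.41) and the cytokine Il11 (-1.36), and the higher one was the cell cycle inhibitor Cdkn2b (1.37). Fn1, which encodes fibronectin, had a difference of 0.07, and Thbs1, which encodes thrombospondin 1, read 14.73 in each array.

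Growth factor genes past 2-fold lay on both sides. Igfbp5, which binds insulin-like growth factors, read 8.58 in wild type and 9.43 in Tgfbr2 cKO, with a difference of -2.42, while Igfbp3 read 8.89, 8.54 and 10.67. For both the Tgfbr2 cKO array lay on the far side of wild type. Vegfd, a lymphatic growth factor, read 11.67, 11.13 and 13.53, and Ptn, which encodes pleiotrophin, and Angpt2 had differences of 2.02 and 1.94. The placental growth factor gene Pgf (-1.37) and Angptl4 (-1.13) were lower. In the Wnt pathway Frzb, a secreted Wnt antagonist, read 8.93, 9.53 and 6.34, and Wnt2 and Dkk2 had differences of 1.87 and 1.63. Gas1, a hedgehog co-receptor that also stops growth when overexpressed, read 9.48, 9.44 and 11.84. Gas6, a ligand of the TAM receptors, read 10.77, 10.38 and 12.79, and Pros1, the second ligand of that receptor family, had a difference of 1.25. Slit2, a guidance ligand, read 11.44, 11.34 and 12.63.

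**Figure D2:**
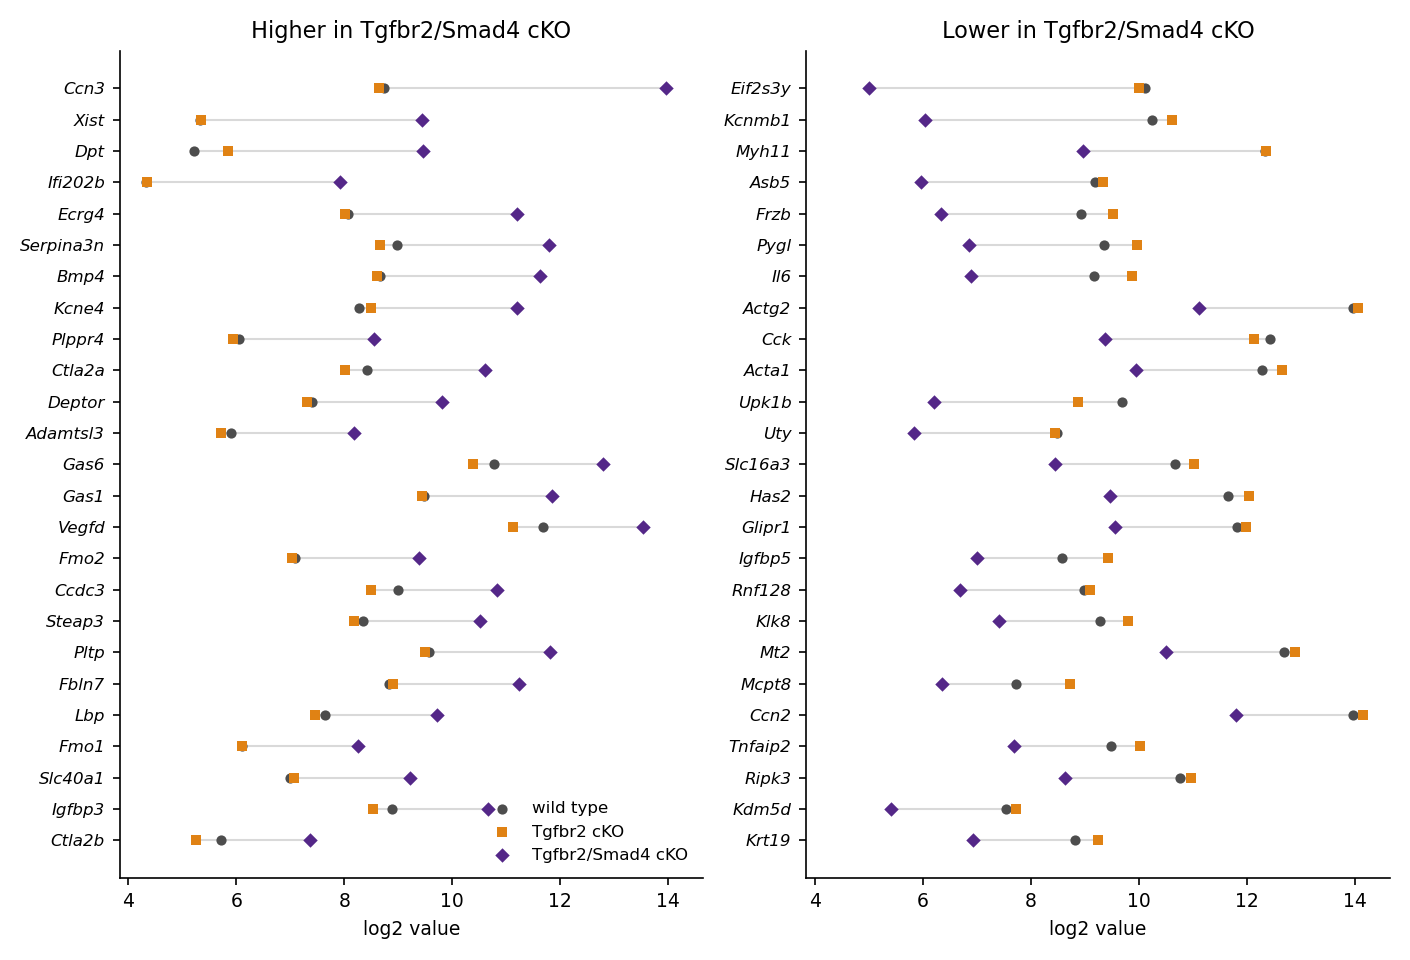
Log2 value in the wild-type (circle), Tgfbr2 cKO (square) and Tgfbr2/Smad4 cKO (diamond) arrays of the 25 single-probe-set genes with the largest difference in each direction. In all 50 rows the square lies nearer to the circle than to the diamond. This follows from the draw, which took the widest gaps between square and diamond. Over all genes 0.0339% differed by 2-fold between square and circle. In 40 rows the square is within 0.5 of the circle, and among the other 10 the widest gap is that of Mcpt8.

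Inflammatory signals parted by kind. Il6 read 9.17, 9.88 and 6.89, a 7.95-fold difference, and Il11 of the same cytokine family read 7.60, 8.39 and 7.03. Lif (-0.07) and the shared receptor Il6st (0.27) were under 2-fold. Ptgs2, the inducible cyclooxygenase, read 13.80, 13.76 and 12.73, and Ptgis, the prostacyclin synthase, read 9.97, 9.43 and 10.96. Among 9 chemokines none passed 2-fold, the largest difference being that of Ccl2 at -0.79. Of 17 complement and acute-phase genes with a value 10 passed the level filter, with a median of 1.07 against 0 for all genes. By at least 2-fold 5 (50%) were higher, against 1.32% of all genes, and 1 (10%) was lower, against 2.25%. C1ra (5.97, 6.11 and 7.95) and C2 (6.48, 6.48 and 6.68) were the 2 of the 10 that passed through the Tgfbr2/Smad4 cKO array alone. They could be counted only by being higher there. Under the filter Cfi, Saa3, Lcn2, Hp, Orm1 and Cp were equal in the pair and C3ar1 had a difference of -0.08. Serpina3n, a secreted protease inhibitor of the acute phase, read 8.98, 8.66 and 11.80. C1s1 and C1ra, the proteases of the first complement component, had differences of 1.89 and 1.84, Cfb, factor B of the alternative pathway, 1.55, and Serping1, the inhibitor of the first component, 1.27. Cd55, which protects cells from complement, was the lower member at 7.32, 7.02 and 5.33. Lbp, the lipopolysaccharide binding protein, read 7.65, 7.46 and 9.72, and its receptor-complex partner Tlr4 had a difference of 1.16. Of 17 interferon response genes the only 1 past 2-fold was Ifi202b, a DNA-binding interferon-inducible gene, at 4.33, 4.35 and 7.93. Ifi202b passed the level filter through the Tgfbr2/Smad4 cKO array alone, so it could be counted only by being higher there.

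Members of the cell cycle lists made up 58 of the 266 lower genes (21.8%) and 5 of the 156 higher ones (3.21%). These were the mitosis, replication, repair, CDK inhibitor and p53 target lists, with 73, 52, 25, 13 and 25 of the 11808 genes, some of them shared. Without the mitosis, replication and repair lists 209 lower and 156 higher genes were left, so the 5 higher ones came from the other lists. Of 73 genes of mitosis and the spindle 47 (64.4%) were at least 2-fold lower, against 2.25% of all genes, and none was higher. Below 0 lay 70, against 33.7% of all genes, and the median was -1.20. For 16 of the 73 the Tgfbr2/Smad4 cKO value lay under the level filter. The median level over the list with a value was 8.64 in wild type, 8.43 in Tgfbr2 cKO and 7.18 in Tgfbr2/Smad4 cKO. Bub1, a kinase of the spindle checkpoint, read 9.18, 8.72 and 6.54. Ccna2, which encodes cyclin A2, read 9.82, 9.70 and 7.69, and the spindle motor gene Kif11 read 8.78, 8.41 and 6.46. The kinases Plk1 and Aurka had differences of -1.78 and -1.75, Mki67, the proliferation antigen Ki-67, one of -1.63, and Foxm1, a transcription factor of mitotic genes, one of -1.24. Not all members were lower. Gtse1 was 0.17 higher, Espl1 and Cdc25b were equal, Pttg1, which encodes securin, had a difference of -0.26 and Cdk1, the mitotic kinase, one of -0.92.

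Replication genes were lower by less. Of 52, 48 lay below 0 and none above, and the median was -0.51. By at least 2-fold 9 (17.3%) were lower, against 2.25% of all genes. Mcm6, a subunit of the replicative helicase, read 9.91, 9.81 and 7.95, while the other subunits ran from Mcm5 at -1.07 through Mcm3 at -0.77 and Mcm4 at -0.64 to Mcm2 at -0.55, with Mcm7 just past 2-fold at 9.48, 9.47 and 8.47. Rrm2, the ribonucleotide reductase subunit made in S phase, had a difference of -1.68 and its partner Rrm1 one of -0.38. Cyclin E2 (Ccne2) had a difference of -1.63 and cyclin E1 (Ccne1) one of -0.45. DNA repair genes had a median of -0.15, with 1 of 25 past 2-fold, the exonuclease gene Exo1 at -1.08, or -0.77 with 32 added to the linear values. Of 13 CDK inhibitor, D cyclin and RB family genes 6 lay above 0 and 5 below, with a median of 0. Cdkn2a, whose locus makes p16 and p19ARF, read 9.77, 9.54 and 11.33, its neighbour Cdkn2b, which encodes p15, read 10.23, 10.19 and 11.56, and Ccnd1, cyclin D1, read 11.43, 11.05 and 12.13. These were the 3 members past 2-fold, all higher, while the inhibitors Cdkn1b (-0.38) and Cdkn2d (-0.12) lay below 0 and Cdkn1c and Cdkn2c were equal. The p53 targets had 2 of 25 higher and 1 lower by 2-fold and a median of 0.17. Ano3 (1.85) and the death receptor gene Fas (1.15) were the higher ones and Pmaip1, which encodes NOXA, the lower one at -1.88.

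**Figure D3:**
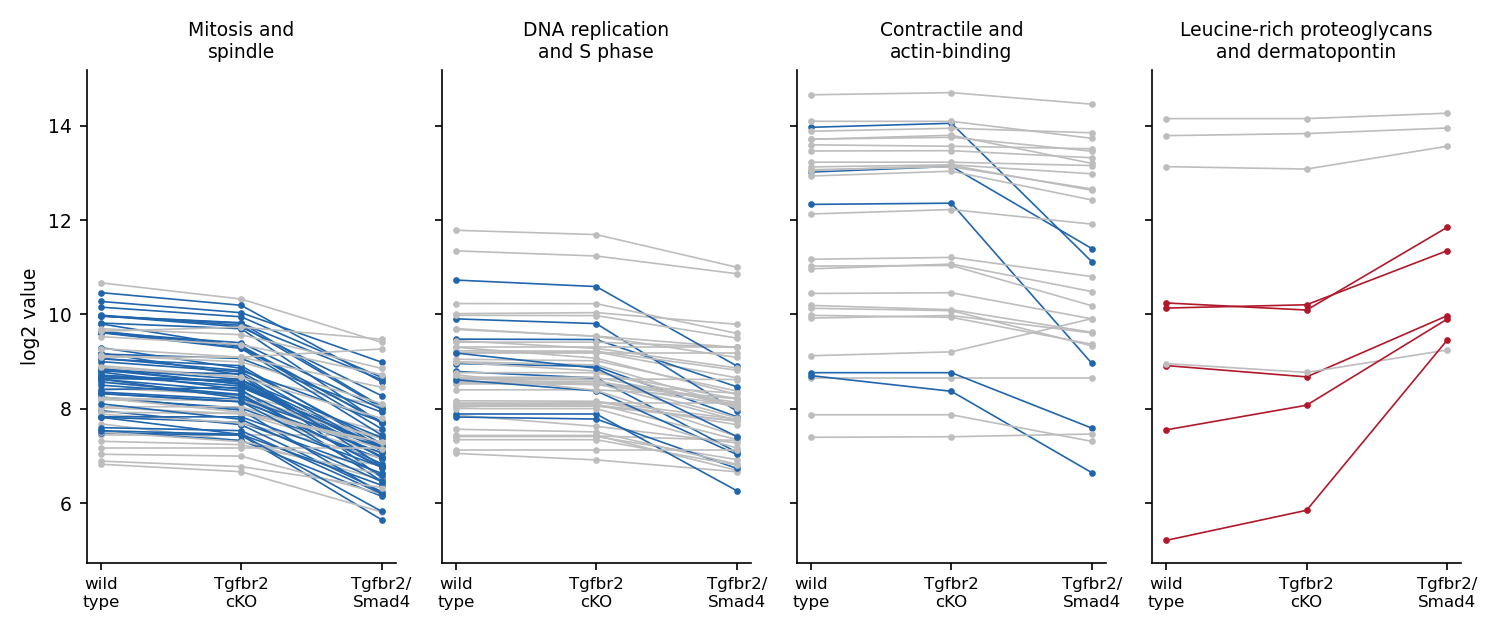
Log2 value of every member past the level filter of 4 lists in the 3 arrays, 1 line per gene, blue where the Tgfbr2/Smad4 cKO value is at least 2-fold below that of Tgfbr2 cKO, red where it is at least 2-fold above and grey otherwise. From Tgfbr2 cKO to Tgfbr2/Smad4 cKO the lines go down for 70 of 73 mitosis genes and up for the 9 genes of the proteoglycan list.

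The promoters of these genes are shown because mitotic and replication genes share short, well-known promoter elements, which allows the members that moved together to be read side by side. Sequences are from RefSeq (GRCm38.p6), which gave a promoter of 250 bases before to 50 after the start for 9468 of the 11808 genes, the first listed being used for the 1889 genes with more than 1. The 7 patterns were searched on both strands. The letters CCAAT (the NF-Y box) and TTTGAA (the cell cycle homology region, CHR) mark many mitotic promoters, and TTTGGCG or TTTCCCG were taken as an E2F-like site. CHR letters stood in 26 of 39 promoters (66.7%) of mitosis genes at least 2-fold lower, in 40 of 61 (65.6%) of the whole mitosis list, and in 11.3% of all promoters. The share was thus the same for mitosis genes past the rule and for the list as a whole. Off the cell cycle lists, 20 of 160 lower genes (12.5%) had it, near the share of all genes, and among higher genes 20 of 112 (17.9%) had it. CCAAT and CHR letters were both present, in any order, in 20 of the 39 promoters (51.3%), against 4.63% of all. A CHR began within 50 bases of the start site in 23 of the 39 (59.0%), against 2.88% of all. Neither of these shares was counted for the whole mitosis list, so they cannot part list membership from the difference between arrays. CCAAT letters alone were in 26 of the 39 (66.7%), 44 of the 61 (72.1%) and 38.0% of all. The CCAAT and CHR letters overlapped in 12 promoters of all 9468. E2F-like letters were in 20 of 43 promoters of the replication list (46.5%), against 8.44% of all, and in 3 of the 7 that were at least 2-fold lower. A match is a description of letters and not a bound site. Below are 120 bases before to 10 after the start, with the CCAAT and CHR letters, on either strand, in capitals for the first 3 genes and the E2F-like letters for Mcm6. They lie at chr19:37376262-37376391 on the plus strand, chr3:159495313-159495442 on the plus strand, chr9:70421545-70421674 on the minus strand and chr1:128359696-128359825 on the minus strand.
Kif11: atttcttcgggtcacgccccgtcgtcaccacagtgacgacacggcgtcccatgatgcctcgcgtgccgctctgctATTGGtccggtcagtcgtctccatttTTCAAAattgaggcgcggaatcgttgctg
Depdc1a: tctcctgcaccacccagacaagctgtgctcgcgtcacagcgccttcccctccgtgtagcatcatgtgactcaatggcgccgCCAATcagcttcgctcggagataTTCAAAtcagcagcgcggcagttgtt
Ccnb2: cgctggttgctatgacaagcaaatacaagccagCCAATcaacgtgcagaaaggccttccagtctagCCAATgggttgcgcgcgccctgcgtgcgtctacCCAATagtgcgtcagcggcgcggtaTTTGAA
Mcm6: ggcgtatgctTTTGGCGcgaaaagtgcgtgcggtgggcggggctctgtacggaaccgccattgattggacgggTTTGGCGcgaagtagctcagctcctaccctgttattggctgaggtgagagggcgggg
In Kif11 the CCAAT letters began at base -45 and the CHR at base -19, and in Depdc1a, a mitotic regulator with a difference of -1.63, at -39 and -16, counted from the start site. Ccnb2, which encodes cyclin B2 and had a difference of -1.41, carried 3 CCAAT copies, beginning at -87, -54 and -21, before a CHR that began at 5. Prc1 (-1.84) and Ect2 (-1.74), with larger differences than Depdc1a and Ccnb2, also held both elements in this stretch but are not printed. In Prc1 they began at -37 and -5. Ect2 had the other order, with a CHR at -114 before CCAAT copies at -96, -55 and 2.

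Of 30 contractile and actin-binding genes 27 lay below 0, against 33.7% of all genes, with a median of -0.47. Above 0 lay 2, and 1 was equal. The list was bright, with a median level of 11.72 in the Tgfbr2 cKO array, and the share over all genes is not matched for level. By at least 2-fold 5 (16.7%) were lower, against 2.25% of all genes. Myh11, the smooth muscle myosin heavy chain, read 12.33, 12.36 and 8.96, a 10.5-fold difference. Actg2, the enteric smooth muscle actin, read 13.97, 14.05 and 11.12. Cnn1, which encodes calponin, and Des, which encodes desmin, had differences of -1.74 and -1.73. The genes most used as myofibroblast markers differed by less. Acta2, smooth muscle alpha-actin, read 14.66, 14.70 and 14.46, and Tagln, which encodes SM22, read 14.10, 14.09 and 13.73. Mylk, the myosin light chain kinase, was on the other side at 0.70. Acta1, the skeletal muscle actin gene, read 12.28, 12.65 and 9.94. Skeletal and cardiac muscle markers did not move together as a list. Of 12 past the level filter 5 lay above 0, 3 below and 4 were equal, with a median of 0. By at least 2-fold 2 (16.7%) were lower, Acta1 and Des, and none was higher. Jph2 and Asb5, muscle genes off both lists, were also lower. Jph2, which encodes junctophilin and couples membrane and store calcium channels, read 11.16, 11.24 and 7.97, with its 2 probe sets at -3.40 and -3.14, and Asb5 read 9.19, 9.34 and 5.97. Kcnmb1, the smooth muscle subunit of the large-conductance potassium channel, read 10.25, 10.61 and 6.04. This was a 23.7-fold difference to a value under the level filter of 6.63. The pore gene Kcnma1 read 5.85, 5.98 and 6.81, a difference of 0.83. Kcnma1 passed the level filter through the Tgfbr2/Smad4 cKO array alone. Kcne4, a potassium channel accessory subunit, read 8.27, 8.50 and 11.19.

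The CArG box, the element of serum response factor, stood in 5 of 25 promoters of the contractile list (20.0%), against 1.43% of all promoters. None of the 3 contractile genes that were at least 2-fold lower and had a promoter here was among those 5. They were Srf, Vcl, Cnn2, Myl9 and Actc1, whose differences ran from -0.55 to 0.00. Of 206 lower genes with a promoter 8 (3.88%) had it, among them Acta1 and Asb2, the latter a muscle ubiquitin ligase subunit that read 9.29, 9.63 and 7.44. Both are printed because they join this element to a large difference, with the CArG letters in capitals, at chr8:123894766-123894895 on the minus strand and chr12:103355992-103356121 on the minus strand.
Acta1: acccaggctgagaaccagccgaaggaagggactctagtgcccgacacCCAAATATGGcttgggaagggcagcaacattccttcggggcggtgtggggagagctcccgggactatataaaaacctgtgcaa
Asb2: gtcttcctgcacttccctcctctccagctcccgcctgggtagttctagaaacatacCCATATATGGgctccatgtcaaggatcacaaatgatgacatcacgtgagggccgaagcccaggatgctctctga
The element began at base -73 in Acta1 and at base -64 in Asb2.

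Matrix genes varied by family. Of 13 small leucine-rich proteoglycan and dermatopontin genes with a value 9 passed the level filter. Those 9 lay above 0, against 30.2% of all genes, with a median of 1.14. By at least 2-fold 5 (55.6%) were higher, against 1.32% of all genes. Under the filter Kera, Ecm2 and Chad were equal in the pair and Omd was 0.10 higher. Dpt passed through the Tgfbr2/Smad4 cKO array alone, so it could pass only by being higher there. Dpt, which encodes dermatopontin, a binder of decorin and collagen, read 5.21, 5.85 and 9.45, a 12.2-fold difference from a level under the filter. Podn read 7.55, 8.08 and 9.90 and Ogn 10.24, 10.09 and 11.85. Fmod and Lum, which encode fibromodulin and lumican and shape collagen fibrils, had differences of 1.30 and 1.14. The brightest members, Bgn (0.11) and Dcn (0.12), which encode biglycan and decorin, were nearly level. Of 28 collagen chain genes 20 lay above 0, against 30.2% of all genes, with a median of 0.13. Col6a1 read 9.51, 9.43 and 11.32 and its neighbour Col6a2 read 8.60, 8.70 and 9.99, whereas Col14a1, a fibril-associated collagen, read 8.59, 9.30 and 7.30. Fbln7, a fibulin, read 8.83, 8.91 and 11.23. Lama2, the laminin alpha 2 chain, read 9.72, 9.82 and 8.17, as the only lower 1 past 2-fold among 13 basement membrane genes. No adhesive glycoprotein gene of 12 passed 2-fold, with Vcan, which encodes versican, at -0.92 and Tnc, which encodes tenascin C, at -0.80. Has2, the hyaluronan synthase, read 11.65, 12.03 and 9.47.

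Proteases and adhesion genes were split as well. Plau, which encodes urokinase, read 10.85, 11.01 and 8.81 and its receptor gene Plaur 10.97, 11.09 and 9.68, while the tissue activator gene Plat had a difference of 0.88. Mmp10, stromelysin 2, read 8.14, 8.69 and 6.60, the only gene past 2-fold among 16 metalloproteinases and their TIMP inhibitors. Adamts1 (1.37) and Adamtsl3 (2.45) were higher and Adamts12 (-1.04) lower. Adamtsl3 read 5.90, 5.72 and 8.17, so it passed the level filter through the Tgfbr2/Smad4 cKO array alone. The collagen receptor Itga11 read 10.54, 10.18 and 12.08 against 12.04, 12.31 and 10.72 for the fibronectin receptor Itga5. Thy1, a surface marker of many fibroblasts, read 10.52, 10.35 and 8.16, and Pdgfra, another, read 9.73, 10.14 and 11.13, just under 2-fold. Of 28 transcription factor genes of gut mesenchyme 3 were at least 2-fold higher and 2 lower, 10 were equal and the median was 0. Foxf2 (-1.71) and Tbx18 (-1.88) were the lower ones and Gata6 (1.18), Tbx15 (1.61) and Twist2 (1.15) the higher ones. Gata6 read 8.56, 8.07 and 9.25, Tbx15 6.72, 6.07 and 7.68, and Twist2 9.08, 8.47 and 9.62. In these 3 the Tgfbr2 cKO array lay below wild type. The Tgfbr2/Smad4 cKO array was less than 2-fold above wild type in each (0.69, 0.97 and 0.55). Foxf2 and Tbx18 differed from wild type by -1.58 and -1.59. Of 21 HOX genes Hoxc6 alone passed, at 1.42.

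**Figure D4:**
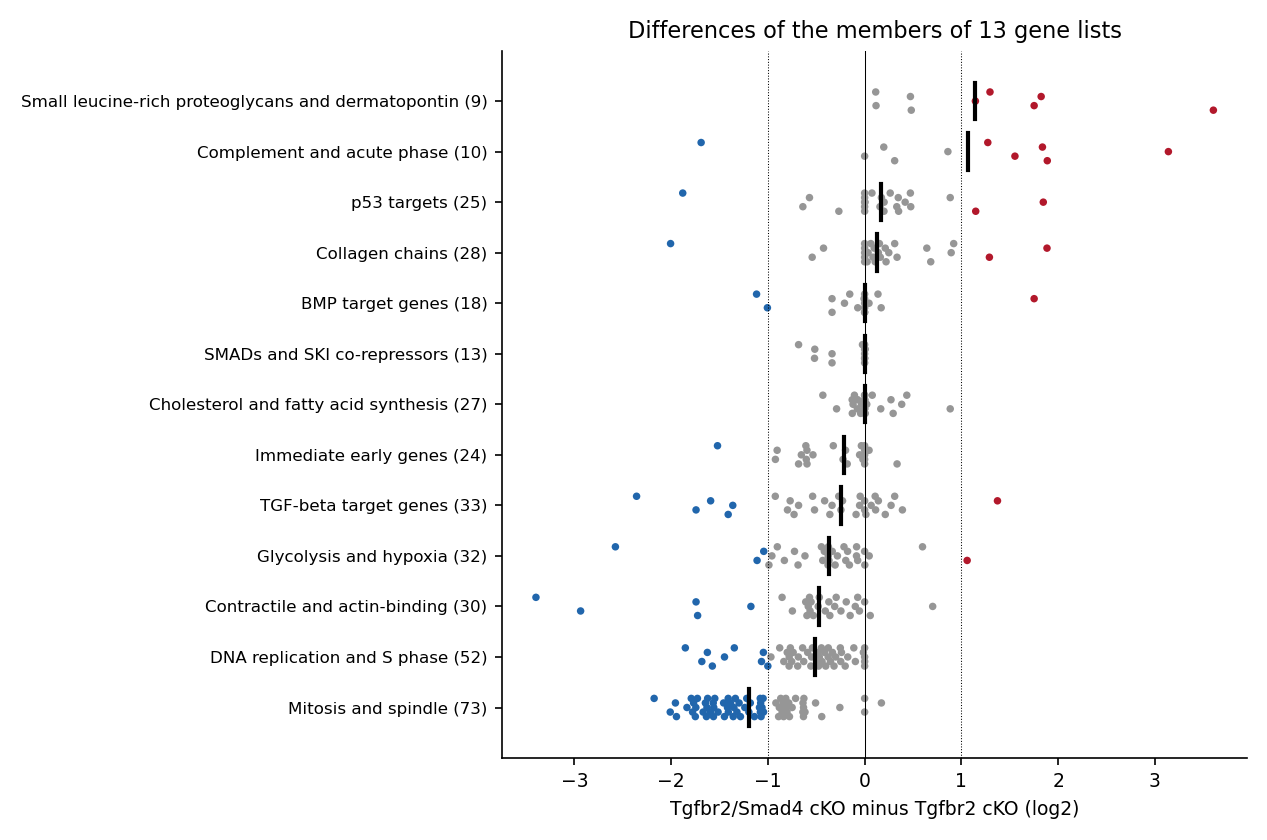
Difference (Tgfbr2/Smad4 cKO minus Tgfbr2 cKO, log2) of each member past the level filter of 13 gene lists, with the number of members in brackets, the median as a black bar, members at least 2-fold higher in red and lower in blue, and dotted lines at 2-fold. Medians run from 1.14 for the proteoglycan list to -1.20 for the mitosis list, with 0 for the BMP target, SMAD and cholesterol lists. In these lists with a median of 0, in that order, 6, 6 and 7 members were exactly equal.

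Glycolysis and hypoxia genes lay mostly below 0, few of them past 2-fold. Of 32 glycolysis and hypoxia genes 27 lay below 0, against 33.7% of all genes, and the median was -0.37. Above 0 lay 4, and 1 was equal. The list had a median level of 10.81 in the Tgfbr2 cKO array, and the share over all genes is not matched for level. By at least 2-fold 3 were lower, against 2.25% of all genes, and 1 was higher. Slc16a3, the lactate exporter MCT4, read 10.67, 11.02 and 8.44. The other lower members were Egln3, an oxygen-sensing prolyl hydroxylase (-1.04), and P4ha2, a collagen prolyl hydroxylase subunit (-1.11), and the higher one was the glycolytic enzyme Eno2 (1.06). With 32 added to the linear values Egln3 and Eno2 fell short of 2-fold (-0.94 and 0.97). Among the glycolytic genes under 2-fold, Hk2, hexokinase 2, read 10.71, 10.88 and 9.92, Slc2a1, the glucose transporter GLUT1, 12.21, 12.38 and 11.48, and Ldha, lactate dehydrogenase, 13.48, 13.54 and 13.13. The list's median for Tgfbr2 cKO minus wild type was 0.10. Pygl, the glycogen phosphorylase of liver type, read 9.35, 9.97 and 6.85. Among 27 cholesterol and fatty acid genes none passed 2-fold and 10 lay on each side. Among 12 iron genes the 2-fold rule was passed upward by 2 and downward by 1, and the median was -0.03. Tfrc, the transferrin receptor that brings iron in, read 10.15, 10.31 and 8.08, while Slc40a1, the exporter ferroportin, read 7.08 in Tgfbr2 cKO and 9.21 in Tgfbr2/Smad4 cKO and Steap3, an endosomal iron reductase, 8.35, 8.19 and 10.51 in the 3 arrays. The metallothioneins Mt2 and Mt1, zinc and copper binders, had differences of -2.39 and -1.23. The flavin monooxygenases Fmo2 and Fmo1, drug-oxidising enzymes, read 7.09, 7.04 and 9.39 and 6.11, 6.11 and 8.26. Fmo1 passed the level filter through the Tgfbr2/Smad4 cKO array alone. Of 24 immediate early genes 17 lay below 0, against 33.7% of all genes, and 2 above. Only Ier3 passed 2-fold (-1.52), with Fos at -0.60, Jun at -0.53 and Myc at -0.90.

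Genes known from other cell types were among those past 2-fold in a few cases. Mcpt8, a basophil protease, read 7.72, 8.72 and 6.36, and it was the only 1 of 9 mast cell and basophil markers past the level filter, with Cpa3 at 4.88 throughout. Lyz2, the macrophage lysozyme, read 8.70, 9.52 and 7.75, with Cd68 at -0.75 and Csf1r equal at 6.81. Upk1b and Krt19, used as mesothelial markers, read 9.70, 8.87 and 6.21 and 8.82, 9.25 and 6.93, while Wt1 read 8.23, 7.82 and 7.82 and Msln had a difference of -0.07. Of 12 mesothelial markers with a value 9 passed the level filter, of which 7 lay below 0 and 2 were equal. The part of other cells in these differences was not tested, and in a bulk culture fewer cells of a kind and less RNA per cell cannot be told apart.

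Some differences past 2-fold rested in part on the Tgfbr2 cKO value itself. Among lower genes, the Tgfbr2 cKO array stood farthest above wild type for Apod, the lipid carrier apolipoprotein D, at 7.73, 9.15 and 7.48, and then for Mcpt8, Igfbp5, Lyz2, Il11, Mgarp, Il6 and Col14a1. Apod thus came back to within 0.25 of wild type in the Tgfbr2/Smad4 cKO array. Among higher genes it stood farthest below wild type for the glutathione transferase Gsta4, at 9.35, 8.35 and 10.12, then for C1qtnf3 (10.16, 9.43 and 10.87) and the retinaldehyde dehydrogenase Aldh1a1 (11.19, 10.49 and 11.64), and for Neto1, Angpt2, Tbx15, Ano3 and Bckdhb. The tissue of origin differs along with genotype in exactly this contrast, and the parts of the 2 cannot be told apart.

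AP-1 letters (TGANTCA) were in 15 of 112 promoters of higher genes (13.4%), 13 of 206 of lower genes (6.31%) and 4.80% of all, and TATAAA in 15.2%, 8.74% and 6.85%. The SMAD element CAGACA was in 17.0%, 16.5% and 15.7%, so it differed little between the sets. The median GC content was 58.2% in promoters of higher genes, 59.3% in those of lower genes and 61.3% over all. The 15 higher genes included Col6a1, Fas, Efemp1 and Ctla2a, and also Serpinb10 and Serpinb8. These neighbouring protease inhibitor genes read 5.45, 5.38 and 7.07 and 7.36, 7.31 and 8.53. Serpinb10 passed the level filter through the Tgfbr2/Smad4 cKO array alone. Col6a1 and Serpinb10 are printed as a collagen and a serpin example, AP-1 letters in capitals, at chr10:76726035-76726164 on the minus strand and chr1:107528883-107529012 on the plus strand.
Col6a1: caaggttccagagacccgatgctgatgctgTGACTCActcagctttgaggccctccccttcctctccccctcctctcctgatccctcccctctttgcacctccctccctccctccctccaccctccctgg
Serpinb10: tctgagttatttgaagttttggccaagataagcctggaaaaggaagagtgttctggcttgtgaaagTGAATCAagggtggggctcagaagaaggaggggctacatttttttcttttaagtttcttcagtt
The letters began at base -90 in Col6a1 and -54 in Serpinb10.

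**Figure D5:**
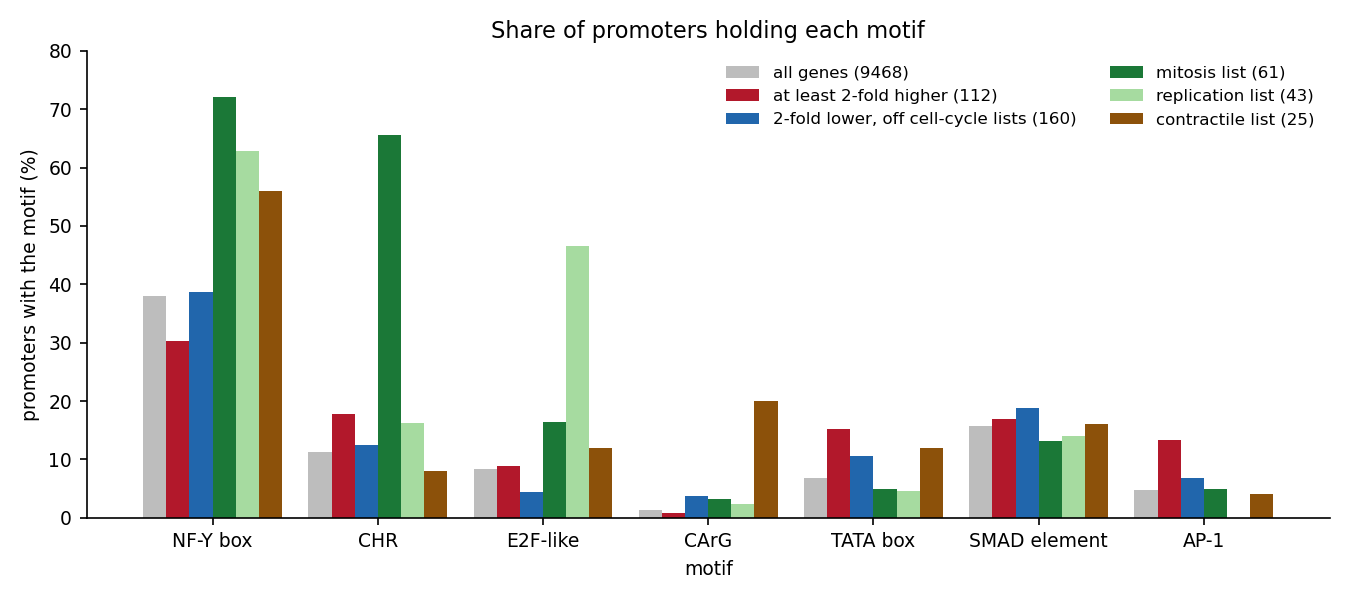
Percentage of promoters (250 bases before to 50 after the start) that hold each of 7 motifs, for all genes, genes at least 2-fold higher, genes at least 2-fold lower off the cell cycle lists, and the mitosis, replication and contractile lists, with the number of promoters in brackets. The CHR bar of the mitosis list reaches 65.6% against 11.3% for all genes, and the E2F-like bar of the replication list 46.5% against 8.44%.

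How firm a single value is can be judged in part from genes with several probe sets. Of 759 such genes past the level filter 14 were past 2-fold, in all 14 the probe sets lay on the same side, and in 12 every probe set passed the rule. The pooled SD of the difference between probe sets of a gene was 0.149, which covers the probes of these arrays and not the spread between cultures. In the 29 higher genes under 6.63 in the Tgfbr2 cKO array and the 58 lower genes under it in the Tgfbr2/Smad4 cKO array, 1 side of the difference was dim. The genes nearest the rule were Mir218-1, Cpz and Adgrl3 just inside it, each at 1.01, and Calcoco1, Rgl1 and Pou3f4 just outside it on the higher side, where Pou3f4 and Rgl1 had a difference of 0.99. On the lower side Mcm7, Agtr1a and Tm4sf1 were just inside and Chn1, Pappa and Maff just outside.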

How the data were processed

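Total RNA of 3 fibroblast lines was read on Affymetrix Mouse Gene 1.0 ST arrays, 1 per line, per the labels' protocols. The authors' deposited values were read as log2 signals, from their range of 2.82 to 15.6; the labels do not state the unit, and neither software, background correction, normalization nor build is given in the sources used here. Medians of the 3 columns differed by at most 0.0041, so nothing was renormalized. Equal values across arrays can hide small differences.

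Of 35556 probe sets, 21789 had 1 gene symbol in the platform annotation, updated through gene identifiers with RefSeq for 21698. They were averaged into 19938 genes, and 11808 had a highest value of at least 6.63, the median of all values. With 1 array per group no test was run. The size rule was 2-fold. The members and the 56 gene lists (1150 symbols, 1081 with a value) were chosen with earlier results of these data known, and several lists share genes. Named genes were the targeted and sex-linked genes, the 25 largest differences per direction with 1 probe set and an established symbol, list members past 2-fold (at most 12, or the 2 largest where none passed), the 8 per direction whose Tgfbr2 cKO value lay farthest from wild type on the other side, and the 3 nearest the rule on each side. Other genes, list members under 2-fold included, were named after their values were seen. Promoters were 300 bases, searched for 7 motifs. The alternatives were other normalizations, filters, probe set rules, an offset of 32 and size rules of 1.5-fold and 3-fold. Counting and motif steps were tested on simulated data. Python 3.11.15, numpy 2.4.6, pandas 2.3.3, matplotlib 3.10.9, R 4.3.3 and limma 3.58.1 were used.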

Additional observations from a re-analysis of the deposited data

Results flagged for a closer look

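Probe sets outside the named genes also differed between the 2 arrays. Of 12146 probe sets that the platform table does not list and that are unnamed here, 4426 passed the level filter and 169 (3.82%) were at least 2-fold different, 107 higher and 62 lower in the Tgfbr2/Smad4 cKO array, with differences from -5.47 to 3.01. Of 1621 probe sets with several gene symbols 832 passed and 33 (3.97%) were at least 2-fold different, 7 higher and 26 lower. Both shares are near the 3.57% of named genes. These signals were singled out because no comparison above uses them.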

How the results depend on the processing

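The 156 higher and 266 lower genes became 160 and 255 after quantile normalization, 158 and 266 after cyclic loess and 139 and 212 with 32 added to the linear values. A filter at the 75th percentile left 113 and 156, and lowered the members at least 2-fold lower from 47 to 20 for mitosis, from 9 to 5 for replication and from 5 to 3 for contraction, and those higher from 5 to 3 for complement, since fewer genes were then counted. The size rule of 1.5-fold gave 401 and 663 genes and that of 3-fold 61 and 100. No named gene past 2-fold changed direction. Quantile normalization moved 9 of 177 named genes across 2-fold, cyclic loess 4 of 177 and the offset 13 of 177, among them Mcm7, whose difference was -0.97, -0.997 and -0.94 in turn. Chosen after seeing the data, any listed promoter in place of the first left the CHR share of lower mitosis genes at 66.7% and gave 13.7% for all genes. No paired analysis was possible because each group holds 1 array and all carry the number 1. Exactly equal values in 36.1% of genes, 1 array per group and dim signals limit what the pair can show.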

Other observations

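Genes off the lists made up 106 of the 156 higher and 154 of the 266 lower genes, and several held functions not described above. Ecrg4, a secreted peptide precursor, read 8.08, 8.01 and 11.21, in the order used above, and Deptor, an inhibitor of mTOR, 7.39, 7.30 and 9.81. Pltp, which transfers phospholipids between lipoproteins, read 9.57, 9.49 and 11.82, and the selenium carrier gene Selenop 8.50, 8.27 and 10.26. On the lower side, the neuropeptide gene Cck read 12.43, 12.13 and 9.37, the necroptosis kinase gene Ripk3 10.75, 10.96 and 8.64, and the growth-regulating chromatin gene Hmga2 10.35, 10.34 and 9.30. Nnmt, a nicotinamide methyltransferase, read 10.23, 10.85 and 8.59, and Lrrc32, which encodes the TGF-beta docking protein GARP, 11.36, 11.85 and 10.09. These genes were named after their values were seen.

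Some genes past 2-fold lay next to each other. Genes past the level filter were ordered by their start on the chromosome (RefSeq, GRCm38.p6), and for 26 of 421 genes past 2-fold (6.18%) the next gene was past it the same way, 12 pairs higher and 14 lower, against 5 (1.19%) the opposite way. Of all genes past the level filter, 1.32% were at least 2-fold higher and 2.25% lower. No expected share of such neighbours was computed. Some pairs are gene families or share a locus. Higher pairs of that kind were Fmo1 and Fmo2, Col6a2 and Col6a1, C1ra and C1s1, Ctla2b and Ctla2a, Abca8b and Abca8a, Casp1 and Casp12, Serpinb10 and Serpinb8, and Cdkn2a and Cdkn2b. Adcy1 and Igfbp3, Rab27b and Dynap, and Pir and Vegfd were higher pairs of unlike genes. Slit2, at 1.29, was followed by Mir218-1 at 1.01, a microRNA that lies within that gene, so its probes and the host's cannot be told apart here. Lower pairs included Mt2 and Mt1, Mcpt8 and Gzme, Sp140 and Sp100, unlike genes such as Mcm6 and Cd55 or Rrm2 and Mboat2, and the run of Y-linked genes Kdm5d, Eif2s3y and Uty. Near-identical copies such as Ctla2a and Ctla2b or Abca8a and Abca8b may share probe signal, so the 2 values of such a pair are not independent. Pairs in opposite directions were Deptor and Col14a1, Fas and Ch25h, Cenpe and Bdh2, Adam22 and Dbf4, and Ifi27l2b and Serpina3n. At 1.5-fold, a rule added after seeing the data, the shares were 9.90% and 4.15%.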
